A study of Mus musculus with 4 samples.

Results

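Expression of 7509 genes was compared between Spic-/- and control (Spic+/+) macrophages that had received hemin and then lipopolysaccharide (LPS). These were the genes, of 23284 in the deposited files, with at least 5 FPKM (fragments per kilobase of transcript, scaled for library size) in 1 of the 2 LPS libraries. The cells were mouse bone marrow-derived macrophages, that is, macrophages grown from marrow progenitors in culture. Hemin, the oxidised form of heme, was given for 18 h, and LPS, which bacteria carry in their outer membrane and Toll-like receptor 4 senses, was then added at 100 ng/ml for 4 h. The 4 groups were control with hemin alone, control with hemin and LPS, Spic-/- with hemin alone and Spic-/- with hemin and LPS, each with 1 library. All groups, controls included, therefore carried the hemin treatment, which the protocol gives as 40 µM and the sample descriptions as the same figure in mM. The sample titles mark the knockout as conditional, but the labels name neither the allele nor a Cre driver and say nothing of the number or age of the mice.

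Spic encodes Spi-C, a member of the Ets family of transcription factors and a close relative of PU.1, the factor that directs macrophage development. Heme induces Spic in monocytes and macrophages, and the gene is needed for the red pulp macrophages of the spleen, which recycle the iron of old red cells. Toll-like receptor 4 signals through NF-kB and MAP kinases to cytokine genes, and through interferon regulatory factors to type I interferon, whose own receptor then drives a large set of antiviral genes. The series title names Toll-like receptor-dependent genes whose expression is decreased by Spi-C, so the comparison asks which genes stand higher when Spi-C is lacking.

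With 1 library a side there was no replicate check and no test. Ratios are log2 of (FPKM + 1) in knockout over control, which understates the differences of low genes, and a positive value means higher in the knockout. Where a pair of FPKM values is given for a gene, the first is control and the second knockout. Intervals in brackets after a fold are exact 95% intervals for counting error only, from fragments estimated from the spacing of low FPKM values. In control and knockout with LPS, 1 FPKM stood for about 10.3 and 7.86 fragments per kilobase, so that a 2 kb transcript at 5 FPKM rested on about 92.3 and 70.3 fragments.

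Most genes differed little. The median log2 ratio was 0.09, the central 95% of genes lay between −0.49 and 0.60, and 7167 genes (95.4%) were within 1.5-fold. A ratio above 0 was found for 68.1% of genes. At 2-fold, 37 genes (0.493% of 7509) were higher in the knockout and 30 (0.4%) lower, and at 1.5-fold 215 (2.86%) were higher and 127 (1.69%) lower. Of these, 21 were genes of small RNAs, 8 higher and 13 lower, and 4 were unnamed features. Small RNAs are hardly captured by a poly(A) library, and 19 of the 32 small RNA members were listed at 0 in 1 of the 2 libraries, so only the 27 higher and 15 lower named genes are considered further. Higher genes made up 55.2% of all 2-fold calls as deposited, but 42.4% after scaling by the median of ratios and 44.6% after upper-quartile scaling. At 1.5-fold the counts were 134 higher and 178 lower after the first scaling and 140 and 171 after the second, so the balance depended on the scaling.

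Calls were spread over most of the range of levels. Of 3250 named genes with a mean of 5 to 20 FPKM, 13 were 2-fold higher and 5 lower. Of 919 genes between 100 and 1000 FPKM, 5 were higher and 4 lower, and of the 105 genes above 1000 FPKM none reached 2-fold in either direction. Membership itself depended on both libraries for 7095 genes, on control alone for 214 and on knockout alone for 200. The members nearest to the 5 FPKM minimum were 9830001H06Rik at 4.68 (control) and 5.005 FPKM (knockout), Sdccag8 at 5.01 and 4.63, and Sgce at 5.01 and 2.67. Just outside it were Gstz1 at 4.995 and 3.31, Snai1 at 4.996 and 3.96, and Fgd6 at 4.21 and 4.997.

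**Figure D1:**
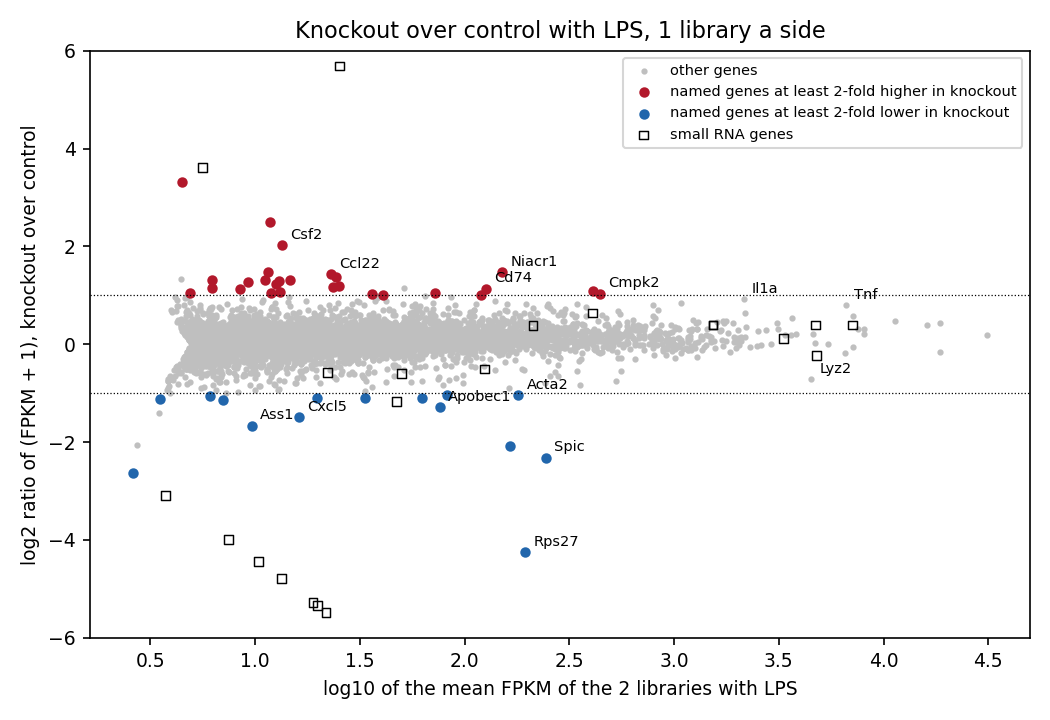
Each point is 1 of the 7509 genes, with the log10 of its mean FPKM over control and knockout with LPS on the x axis and its log2 ratio of (FPKM + 1), knockout over control, on the y axis. Dotted lines mark 2-fold, and 11 small RNA genes lie beyond the y axis. The cloud is centred slightly above 0, and small RNA genes (squares) hold the most extreme ratios on both sides.

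Spic was the targeted gene and stood at 53.1 (control) and 14.98 FPKM (knockout) with hemin alone, and at 406 and 80.8 FPKM with LPS. The knockout library thus kept 19.9% of the control value with LPS, and a value per gene cannot tell which exons these fragments cover. The genes beside Spic on chromosome 10 did not share its ratio. The 12 members within 2 Mb had a median log2 ratio of 0.07 and a range of −0.38 (Nup37) to 0.43 (Igf1), with none at 1.5-fold. PU.1, listed under the older symbol Sfpi1, stood at 606 (control) and 661 FPKM (knockout). Of the other Ets genes only Etv3, a transcriptional repressor, and Ets2 were 1.5-fold apart, Etv3 at 113 and 69.2 FPKM and Ets2 at 66.05 and 101 FPKM. After either scaling Ets2 was within 1.5-fold. Across all 13 Ets genes at 5 FPKM the median was 0.13, against 0.09 for all members.

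Many of the named higher genes had little signal before LPS. Csf2, which encodes the myeloid growth factor GM-CSF, was listed at 0 in control and 0.187 FPKM in knockout with hemin alone, and at 4.69 and 22.2 FPKM with LPS. Its knockout value with LPS was 4.74-fold the control value (3.16 to 7.63). Upp1, the uridine phosphorylase that breaks uridine down and also a chromosome 11 gene, stood at 0.366 and 0.443 FPKM with hemin alone and 13.04 and 35.6 FPKM with LPS. Upp1 was 2.73-fold higher in the knockout (2.23 to 3.37). F3, the gene of tissue factor, which starts the clotting cascade, was lower in knockout than in control with hemin alone, at 1.496 and 0.602 FPKM, and higher with LPS, at 7.97 and 21.4 FPKM. In all 3 genes the LPS-treated knockout library was the highest of the 4. That order follows from the choice of genes higher in the knockout with LPS and low without it.

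Promoters are shown for 6 genes. Those of Csf2, Upp1 and F3 stand for genes higher in the knockout with LPS and low without it. Those of Ifit3 and Rsad2 stand for the interferon genes described further on, and that of Ptx3 for genes lower in the knockout. Each runs 5′ to 3′ on the gene's strand from 250 bases before to 50 bases after the transcript start (RefSeq, GRCm38.p6). Capitals mark matches, on either strand, to the PU box core GAGGAA bound by Ets factors such as PU.1, NF-kB (GGGA, any base, TT, any base, CC), the interferon-stimulated response element or ISRE (GAAA, any 2 bases, GAAA), AP-1 (TGANTCA) or a TATA box (TATAAA). Overlapping matches run together in capitals. Csf2 lies at chr11:54249850-54250149 (minus strand), the Upp1 promoter shown, 1 of 3 in the table, at chr11:9117758-9118057 (plus), and F3 at chr3:121723287-121723586 (plus). Ifit3 lies at chr19:34583279-34583578 (plus), Rsad2 at chr12:26456403-26456702 (minus) and Ptx3 at chr3:66219637-66219936 (plus).
Csf2: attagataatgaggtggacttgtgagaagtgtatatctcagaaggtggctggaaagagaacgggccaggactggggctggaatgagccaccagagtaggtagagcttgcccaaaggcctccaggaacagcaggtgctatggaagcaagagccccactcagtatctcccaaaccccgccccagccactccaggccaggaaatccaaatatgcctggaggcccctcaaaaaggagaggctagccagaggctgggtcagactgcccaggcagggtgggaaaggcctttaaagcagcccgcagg
Upp1: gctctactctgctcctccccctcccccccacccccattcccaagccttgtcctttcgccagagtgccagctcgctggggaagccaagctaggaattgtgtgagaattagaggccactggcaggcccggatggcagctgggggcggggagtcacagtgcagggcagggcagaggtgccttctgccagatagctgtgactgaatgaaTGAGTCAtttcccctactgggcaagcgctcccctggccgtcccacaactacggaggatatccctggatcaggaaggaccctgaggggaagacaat
F3: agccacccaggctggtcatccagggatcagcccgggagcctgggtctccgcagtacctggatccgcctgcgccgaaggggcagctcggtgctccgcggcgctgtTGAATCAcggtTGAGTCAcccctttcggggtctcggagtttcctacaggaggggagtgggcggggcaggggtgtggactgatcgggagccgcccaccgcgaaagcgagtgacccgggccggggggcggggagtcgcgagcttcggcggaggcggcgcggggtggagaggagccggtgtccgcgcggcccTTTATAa
Ifit3: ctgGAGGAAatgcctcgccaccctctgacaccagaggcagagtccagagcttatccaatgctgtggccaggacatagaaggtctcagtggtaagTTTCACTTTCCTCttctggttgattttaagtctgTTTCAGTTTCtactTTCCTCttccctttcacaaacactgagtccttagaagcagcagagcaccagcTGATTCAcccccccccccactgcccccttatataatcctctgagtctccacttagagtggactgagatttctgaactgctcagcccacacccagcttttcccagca
Rsad2: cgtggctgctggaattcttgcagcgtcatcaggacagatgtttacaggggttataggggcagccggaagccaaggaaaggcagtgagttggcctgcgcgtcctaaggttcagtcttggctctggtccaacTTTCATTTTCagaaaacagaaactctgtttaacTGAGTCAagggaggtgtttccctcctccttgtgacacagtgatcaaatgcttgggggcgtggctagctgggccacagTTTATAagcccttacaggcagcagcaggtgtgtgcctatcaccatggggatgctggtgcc
Ptx3: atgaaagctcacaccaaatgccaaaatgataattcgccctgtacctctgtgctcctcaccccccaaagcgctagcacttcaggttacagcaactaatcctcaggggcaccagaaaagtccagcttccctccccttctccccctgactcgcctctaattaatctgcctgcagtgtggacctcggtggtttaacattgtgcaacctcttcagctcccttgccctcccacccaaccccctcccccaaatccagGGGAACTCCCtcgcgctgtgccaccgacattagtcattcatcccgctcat

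The Upp1 and F3 promoters each held an AP-1 match, and F3 held a second one. F3 also had a TATA box match, but on the opposite strand and beginning 43 bases after the start base. The Ifit3 promoter held 2 ISRE matches, 1 of which overlaps 1 of its 3 PU boxes, and an AP-1 match. The Rsad2 promoter held an ISRE, an AP-1 and a TATA box match, the last on the opposite strand at offset −10 from the start base. The Csf2 window had none of the 5 motifs, and the Ptx3 window had an NF-kB match beginning at the start base. Over the 5706 members with a promoter in the table, 31.4% had a PU box, 1.74% an NF-kB match, 4.33% an ISRE, 6.36% an AP-1 match and 8.83% a TATA box. Over all 27025 genes of the table these shares were 31.3%, 1.38%, 3.99%, 8.97% and 15.7%. A gene with several promoters was counted if any of them matched.

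Among the 137 genes at least 1.5-fold higher in the knockout that had a promoter, an ISRE was found in 20 (14.6%), an AP-1 match in 25 (18.2%) and a TATA box in 30 (21.9%). Among the 73 genes at least 1.5-fold lower, the ISRE was found in 1 (1.37%), AP-1 in 4 (5.48%) and the TATA box in 11 (15.1%). The PU box was at 35.0% and 30.1%, close to the 31.4% of all members. These shares are descriptions of letters in short windows and were not tested.

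Other named higher genes with little signal before LPS had various products. Niacr1, now Hcar2, the receptor for niacin and ketone bodies, was the most abundant of them, at 1.47 and 2.93 FPKM with hemin alone and 79.4 and 223 FPKM with LPS, 2.82-fold higher (2.64 to 3.0). Ccl22, a chemokine that attracts CCR4-bearing T cells, stood at 0.1995 and 0.0964 FPKM with hemin alone and at 11.9 and 33.9 FPKM with LPS. Hdc, which makes histamine, stood at 0.0295 and 0.142 FPKM, and with LPS at 7.13 and 18.8 FPKM. In each of these 3 genes the LPS libraries lay far above the hemin libraries and differed by at least 2.64-fold from each other. The genes were picked for such a pattern.

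Other genes near the top encoded cytokines, enzymes and proteins of other kinds. Il23a, the p19 subunit of interleukin 23, was listed at 0 in both hemin libraries and at 14.01 and 32.8 FPKM with LPS, 2.34-fold higher (1.93 to 2.85). Osm, the gene of oncostatin M, was already present at 2.18 and 2.41 FPKM with hemin alone and stood at 4.995 and 13.4 FPKM with LPS. Il1f6, which encodes interleukin 36 alpha, was listed at 0 in both hemin libraries and at 3.49 and 8.998 FPKM with LPS. Mycl1 (now Mycl), a relative of the Myc oncogene, had 7.06 and 18.0 FPKM with LPS, and Shisa3, a membrane protein gene of the Shisa family, had 5.61 and 17.4 FPKM. Il4i1, an L-amino acid oxidase gene, was again listed at 0 without LPS and stood at 23.6 and 48.8 FPKM with it. In all, 18 of the 27 named higher genes were under 5 FPKM in both hemin libraries, and 11 were under 1 FPKM in both. Of the 15 named lower genes, 3 were under 5 FPKM in both. For comparison, 6590 of all 7032 named members had at least 5 FPKM in 1 of the 2 hemin libraries. These shares were not tested.

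**Figure D2:**
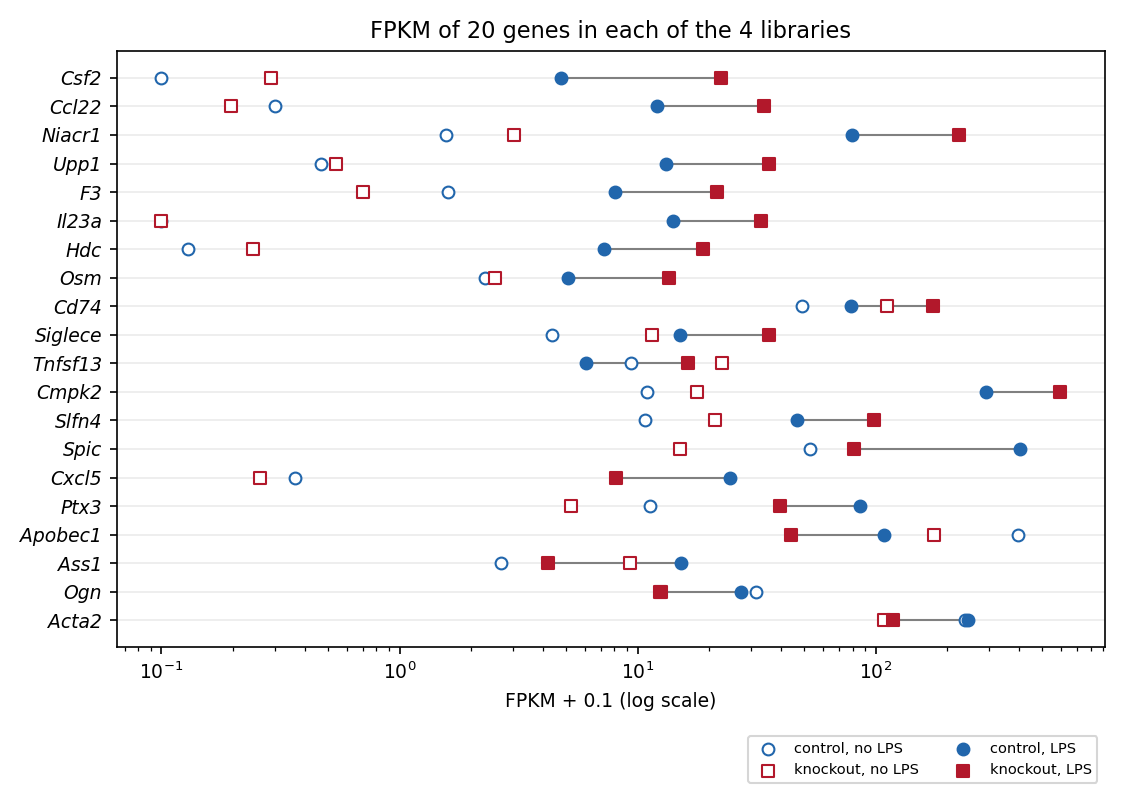
FPKM plus 0.1 on a log axis for 20 genes in control (circles) and knockout (squares), with hemin alone (open) and with LPS (filled), 1 library each. Grey bars join the 2 LPS libraries. From Csf2 to Osm the open symbols lie far to the left of the filled squares, whereas Cd74, Siglece, Apobec1, Ogn and Acta2 show a like gap between genotypes in both states.

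The remaining 9 named higher genes had at least 5 FPKM without LPS, and all 9 were also at least 1.5-fold higher in the knockout there, 6 of them at least 2-fold. In that pair 7762 genes had 5 FPKM in 1 of the 2 libraries, of which 0.49% were 2-fold higher in the knockout, 0.412% 2-fold lower, 1.75% 1.5-fold higher and 1.37% 1.5-fold lower. Cd74, the invariant chain that guides MHC class II molecules, stood at 49.2 (control) and 111 FPKM (knockout) with hemin alone, and at 78.8 and 175 FPKM with LPS. Siglece, an inhibitory receptor for sialic acid, stood at 4.29 and 11.4 FPKM with hemin alone and 14.998 and 35.4 FPKM with LPS. Tnfsf13, the B cell factor APRIL, was lower with LPS in both genotypes, at 9.26 and 22.5 FPKM without it and 5.96 and 16.2 FPKM with it. The genotype ratio of Cd74, Siglece and Tnfsf13 thus differed by no more than 0.111 on the log2 scale between the LPS and the hemin pair. Ugt1a6b, a glucuronosyltransferase, and Wdfy1 were also 2-fold higher in both pairs, with log2 ratios with LPS of 2.49 and 1.32. Ugt1a6b shares most of its exons with other genes of its locus, so its reads may be split among them.

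Several called genes have near-identical copies, and their ratios are uncertain. Rps27, a ribosomal protein gene with many processed copies, stood at 962 and 51.8 FPKM with hemin alone and 370 and 18.4 FPKM with LPS. Rpl26, of the same kind, was listed at 0 in 3 libraries and at 8.96 FPKM in the LPS-treated knockout. Atp6v0c, a proton pump subunit, was lower in the knockout with LPS (455 and 257 FPKM) while its pseudogene Atp6v0c-ps2 was higher (260 and 556 FPKM). The pairs Apol9a and Apol9b (log2 ratios 1.12 and 1.06) and Pnp and Pnp2 (0.74 and 1.07) also resemble each other closely in sequence. Akr1b3, an aldose reductase gene, stood at 0 and 2.26 FPKM with hemin alone and at 5.23 and 0 FPKM with LPS.

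Cytokine genes were not uniformly higher. Of 9 interleukin 6 and 12 family genes at 5 FPKM, 4 were higher by 1.5-fold or more and none lower, with a median of 0.35. For comparison, 2.86% of all 7509 members were 1.5-fold higher and 1.69% lower. In addition to Osm and Il23a, Lif, a leukaemia inhibitory factor gene, stood at 21.8 and 35.8 FPKM, but Il12b, the shared p40 subunit of interleukins 12 and 23, stood at 55.5 and 69.7 FPKM and Il27 at 499 and 582 FPKM. The receptor subunit Il6st stood at 17.5 and 13.5 FPKM. The p19 subunit was therefore 2-fold apart and its p40 partner was not.

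Of 6 TNF superfamily ligands, 4 were 1.5-fold higher and none lower, with a median of 0.75. Tnfsf15 (TL1A) stood at 32.8 and 54.1 FPKM and Tnfsf10 (TRAIL) at 3.70 and 7.20 FPKM, in addition to Tnfsf13 and Tnf. Tnf, the prototype of the family, stood at 49.0 and 65.5 FPKM with hemin alone and was 1.73-fold higher in the knockout with LPS (1.72 to 1.75). Tnfsf9, the ligand of the costimulatory receptor 4-1BB, had the opposite sign at 281 and 221 FPKM. Of 12 colony-stimulating and growth factor genes, 4 were 1.5-fold higher and none lower, with a median of 0.48. These were Csf2, Csf3 (G-CSF) at 29.4 and 55.2 FPKM, Inhba (the activin A subunit) at 25.8 and 48.5 FPKM, and Gdf15 at 98.5 and 182 FPKM. Csf1, which encodes M-CSF, had the opposite sign at 53.3 and 39.3 FPKM.

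Of the 14 interleukin 1 family and inflammasome genes, 2 were 1.5-fold higher, Il1a and the flagellin sensor Nlrc4, and the median was 0.27. Il1b stood at 5779 and 8589 FPKM with LPS, which is 1.49-fold, and at 1.37 and 6.70 FPKM with hemin alone. The receptor antagonist gene Il1rn stood at 1084 and 1460 FPKM, and the sensor Nlrp3 at 274 and 409 FPKM. After either scaling 1 of the 14 was 1.5-fold higher. Casp1, which cleaves pro-interleukin 1 beta, was near equal at 298 and 294 FPKM, and so was the adaptor Pycard at 14.04 and 12.2 FPKM.

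Chemokine genes included members on both sides. Of 12 CXC chemokine genes, 2 were 1.5-fold higher and 3 lower, and the median was 0.30. Cxcl11, a ligand of CXCR3 on T cells, stood at 26.7 and 54.6 FPKM with LPS. Cxcl10, another ligand of that receptor, was also higher in the knockout, at 2987 and 4355 FPKM. Cxcl9, a ligand of the same receptor, was lower, at 74.6 and 54.3 FPKM. Cxcl5, a neutrophil attractant, stood at 24.3 and 8.05 FPKM, whereas the neutrophil attractants Cxcl1 (2648 and 3584 FPKM) and Cxcl2 (9510 and 13211 FPKM) were higher in the knockout by less than 1.5-fold. Cx3cl1, a membrane-bound chemokine listed with them, stood at 40.2 and 24.95 FPKM. Ligands of 1 receptor thus lay on different sides.

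Of 13 CC chemokine genes 2 were 1.5-fold higher, Ccl22 and Ccl12, none lower, and the median was 0.40, whereas after either scaling 1 was higher and 1 lower. Ccl20, which attracts CCR6-bearing cells, had the lowest ratio at 34.7 and 23.2 FPKM, a log2 ratio of −0.56. Ccl17, the other ligand of the Ccl22 receptor, stood at 6.78 and 8.10 FPKM, a 1.19-fold ratio whose counting interval of 0.605 to 2.32 covers 1. In FPKM the largest differences of the whole comparison were in this family. Ccl3 stood at 15889 (control) and 21377 FPKM (knockout), and Ccl4 at 13971 and 18411 FPKM, although their folds were only 1.35 and 1.32.

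Every type I interferon and antiviral gene on the list lay on the higher side. The list, like the others, was chosen with earlier results of these data known. All 41 had a ratio above 0, from 0.26 (Parp14 and Ifih1) to 1.05 (Slfn4), with a median of 0.57, against 68.1% above 0 and a median of 0.09 over all members. Of the 41, 19 were at least 1.5-fold higher and 2, Slfn4 and Cmpk2, at least 2-fold. All 41 also stayed above 0 after either scaling, when 13 were 1.5-fold and none 2-fold. Ifnb1, the interferon beta gene itself, stood at 0.228 and 0.137 FPKM with hemin alone and at 6.71 and 11.9 FPKM with LPS. Ifit3, an RNA-binding antiviral protein gene whose promoter is printed above, stood at 19.6 and 35.0 FPKM with hemin alone and at 183 and 313 FPKM with LPS. Rsad2, the viperin gene, which sits next to Cmpk2, stood at 23.2 and 31.1 FPKM and at 765 and 1384 FPKM. In both genes the knockout was already higher without LPS. The FPKM gap was wider with LPS, where both genotypes stood higher. As a ratio, the gap was wider with LPS for Rsad2 (log2 ratio 0.41 without and 0.85 with it) but not for Ifit3.

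The interferon genes were higher in the knockout in the hemin pair too, which shares no library with the LPS pair. Over the 39 at 5 FPKM there the median log2 ratio was 0.48. Their summed FPKM was 1534 in control and 2266 in knockout with hemin alone, and 8902 and 13269 with LPS. Of the 33 genes of the list with a promoter in the table, 16 (48.5%) held an ISRE, compared with 4.33% of all members, an element through which many genes of such a list are known to be induced.

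The guanylate-binding proteins and immunity-related GTPases, which interferon gamma and type I interferon both induce, gave a like picture. All 14 had a ratio above 0 (median 0.50) and 6 were 1.5-fold higher, but only 1 after either scaling. Gbp4 stood at 8.62 and 15.3 FPKM and Gbp3 at 81.9 and 130 FPKM. Of the interferon pathway factors, Irf7 stood at 361 and 546 FPKM and Stat2 at 78.7 and 103 FPKM. Across all 13 interferon regulatory factors and STATs only Irf7 was 1.5-fold apart, none after either scaling, and the median was 0.19.

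Among antigen presentation genes, all 20 MHC class I and immunoproteasome genes lay above 0, with a median of 0.23 and 2 at 1.5-fold, namely Nlrc5, the class I transactivator, at 14.9 and 26.0 FPKM, and H2-T24. After either scaling 19 of the 20 lay above 0. H2-M2, a non-classical class I gene outside that list, stood at 78.9 and 160 FPKM. Of 8 class II genes, 3 were 1.5-fold higher: Cd74, H2-Aa at 23.9 and 42.3 FPKM, and H2-Ab1 at 49.2 and 81.4 FPKM. H2-Eb1 stood at 8.46 and 8.31 FPKM, and Ciita, the class II transactivator, was at 0.29 and 0.228 FPKM, under the minimum. Of the 13 costimulatory ligands, Cd80 stood at 8.72 and 15.5 FPKM and Cd86 at 12.3 and 19.9 FPKM, the only 2 at 1.5-fold, of which 1 was left after either scaling.

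**Figure D3:**
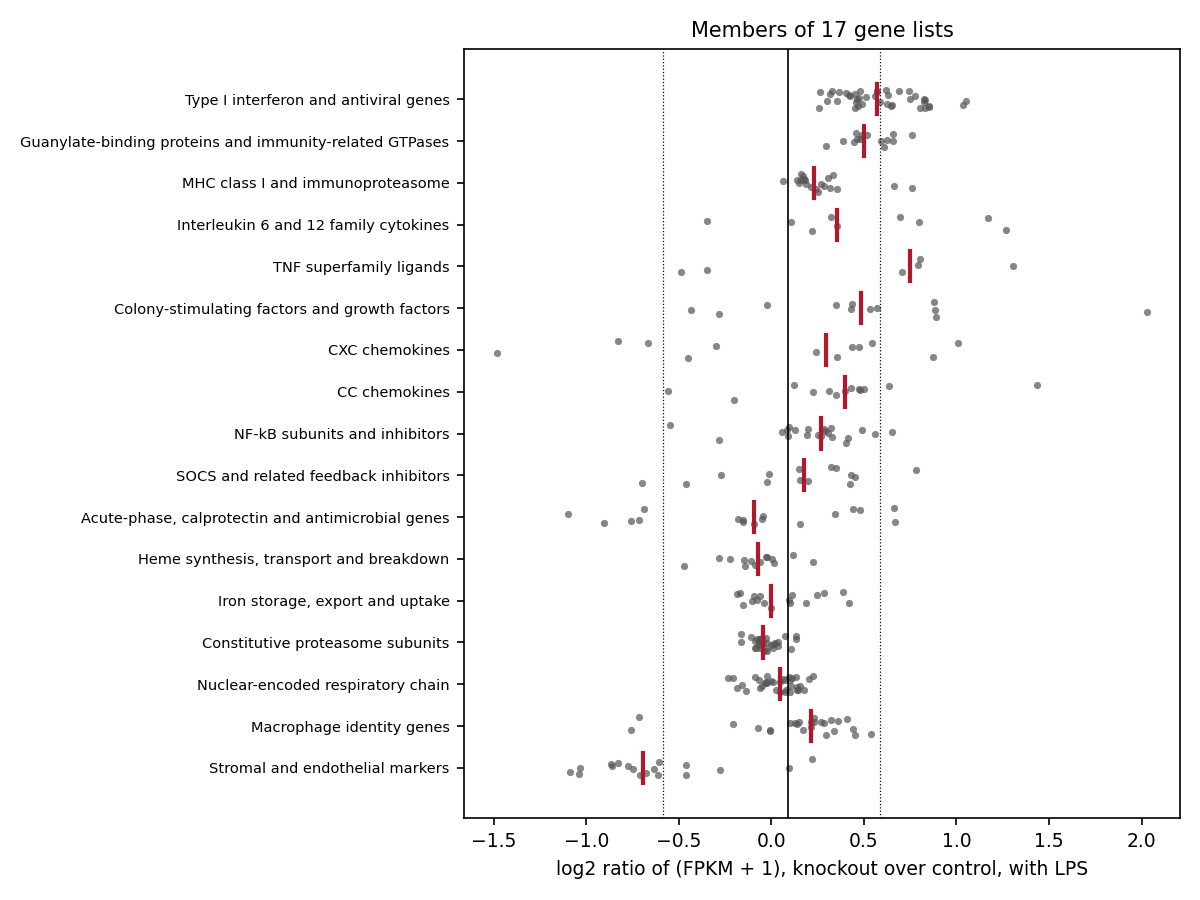
Each point is a gene with at least 5 FPKM in 1 of the 2 LPS libraries, placed by its log2 ratio of (FPKM + 1), knockout over control, with LPS and jittered vertically within its list. Red bars are list medians, the solid line is the median of all 7509 genes (0.09) and dotted lines mark 1.5-fold. The interferon list lies wholly to the right of 0, the stromal list mostly to the left, and the proteasome and respiratory chain lists lie tightly around 0.

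Receptors and signalling genes upstream of these mediators were mostly within 1.5-fold. Of 12 Toll-like receptor complex genes 3 were 1.5-fold higher: Tlr1 at 41.5 and 74.7 FPKM, Tlr3 at 9.89 and 15.9 FPKM and Tlr7 at 55.2 and 83.3 FPKM. After either scaling 1 of the 12 was still 1.5-fold higher. The LPS receptor genes were within 1.5-fold, with Tlr4 at 18.0 and 16.2 FPKM, its co-receptor Ly96 at 80.8 and 83.8 FPKM and Cd14 at 3523 and 4092 FPKM. None of the 17 adaptors and kinases below the receptors was 1.5-fold apart (median 0.21), Irak2 coming nearest at 89.6 and 126 FPKM.

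Among 21 NF-kB genes 1 was 1.5-fold higher, the signalling adaptor Traf1 at 224 and 354 FPKM, and the median was 0.27. After either scaling none was 1.5-fold higher and 1 was lower. The inhibitors Nfkbia (1633 and 1738 FPKM) and Tnfaip3 (635 and 725 FPKM) were close to the median of all genes, whereas Tnip3, which restrains NF-kB, stood at 49.3 and 66.4 FPKM with hemin alone and 408 and 279 FPKM with LPS. Tnip3 was thus lower in the knockout with LPS, at 0.683-fold (0.653 to 0.714), and higher without it. Dusp1, the phosphatase that shuts off p38 and JNK, had the same order, at 77.1 and 91.2 FPKM with hemin alone and 663 and 455 FPKM with LPS. Dusp4, a phosphatase for ERK, had the opposite sign with LPS at 9.48 and 19.5 FPKM, just under the 2-fold call. Over the 20 MAP kinase genes the median was 0.07, and it was below 0 after either scaling.

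Feedback inhibitors downstream of interleukin 10 and related cytokines were also divided. Etv3 and Sbno2, repressors linked to the interleukin 10 response, stood at 113 and 69.2 FPKM and at 130 and 94.0 FPKM, although Il10 itself stood at 284 and 357 FPKM. Socs3, which limits interleukin 6 receptor signalling, stood at 1100 and 911 FPKM, Socs1 at 89.2 and 87.8 FPKM, and Cish, induced through STAT5, at 10.6 and 18.9 FPKM. Of the 14 genes, 1 was 1.5-fold higher and 1 lower.

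Among effector enzymes, Ass1, the argininosuccinate synthase that renews arginine for nitric oxide, lay on different sides in the 2 states. It stood at 2.56 (control) and 9.21 FPKM (knockout) with hemin alone, and at 15.2 and 4.095 FPKM with LPS. Nos2, the inducible nitric oxide synthase, stood at 53.8 and 74.2 FPKM with LPS, and the arginine transporter Slc7a2 at 85.0 and 133 FPKM. The prostaglandin enzymes Ptgs2 (1710 and 2660 FPKM) and Ptges (223 and 337 FPKM) were 1.56-fold and 1.51-fold higher, but no gene of their list was 1.5-fold higher after either scaling, and Slc7a2 also lost this call. Irg1, which makes itaconate, stood at 2802 and 3458 FPKM. Of the 12 genes listed with it, Upp1, Cmpk2 and Pnp were 1.5-fold higher and Uck2, a uridine kinase, was lower at 5.10 and 2.74 FPKM.

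In the oxysterol and cholesterol group, 3 of 13 LXR target and efflux genes were 1.5-fold higher and none lower, with a median of 0.28. Ch25h, which makes 25-hydroxycholesterol, stood at 2.35 and 8.78 FPKM with hemin alone and at 43.0 and 85.7 FPKM with LPS. Mylip, which degrades the LDL receptor, stood at 12.1 and 23.03 FPKM and the transporter Abcg1 at 3.34 and 6.10 FPKM with LPS. Of 12 sterol and fatty acid synthesis genes none was 1.5-fold apart, and the median was −0.00023. Ankrd37, a hypoxia-responsive gene, stood at 2.85 and 6.95 FPKM, while the glycolytic regulator Pfkfb3 stood at 221 and 156 FPKM.

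Genes of heme and iron handling differed little. Hmox1, the heme oxygenase gene, stood at 5423 (control) and 5426 FPKM (knockout). None of 14 heme genes (median −0.07) and none of 17 iron genes (median −0.00) was 1.5-fold apart. Of the heme genes 4 (28.6%) and of the iron genes 8 (47.1%) lay above 0, against 68.1% of all members. After either scaling 2 of the heme genes lay above 0. Bach1, the heme-sensing repressor of Hmox1, was the lowest of the heme list at 29.6 and 21.0 FPKM. The ferritin subunits differed in sign, Fth1 at 29184 and 33244 FPKM and Ftl1 at 19695 and 17538 FPKM, and the iron exporter Slc40a1 stood at 46.7 and 45.4 FPKM. Of the 14 red pulp macrophage genes at 5 FPKM, Spic was lower and Gm4951, an interferon-inducible GTPase, was 1.5-fold higher, though not after either scaling, with a median of 0.05. Constitutive proteasome genes (31, median −0.04) and respiratory chain genes (35, median 0.05) had no member at 1.5-fold. Of the proteasome genes 9 (29%) lay above 0, and of the respiratory chain genes 22 (62.9%).

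The lower side held genes of secreted host-defence proteins and genes of the connective tissue. Ptx3, a pattern-recognition protein of the pentraxin family, stood at 11.2 and 5.14 FPKM with hemin alone and at 85.9 and 39.6 FPKM with LPS, 0.46-fold in the knockout (0.416 to 0.509). S100a8, a calprotectin subunit, was near equal with hemin alone at 20.2 and 18.5 FPKM, and stood at 214 and 114 FPKM with LPS. Its partner S100a9 stood at 16.7 and 9.94 FPKM and at 19.9 and 11.96 FPKM. Lyz2, the macrophage lysozyme gene, had the largest FPKM difference on the lower side, at 5620 and 3419 FPKM with LPS and 6340 and 4014 FPKM with hemin alone. Lyz1 stood at 661 and 390 FPKM with LPS, and because the 2 lysozyme genes are near copies their values cannot be fully told apart. Of the 17 acute-phase and antimicrobial genes, 5 were 1.5-fold lower and 2, Slpi and Ifitm6, higher, and the median was −0.10. After scaling by the median of ratios 5 were lower and none higher, whereas upper-quartile scaling left 5 lower and 2 higher.

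Apobec1, the enzyme that edits apolipoprotein B transcripts, was lower in the knockout in both states, at 397 and 176 FPKM with hemin alone and 108 and 44.0 FPKM with LPS. Fam20c, a kinase of the secretory pathway, stood at 28.8 and 16.9 FPKM and at 46.1 and 21.0 FPKM. Ocel1 stood at 15.5 and 8.83 FPKM and at 10.1 and 4.03 FPKM. Rspo2, which strengthens Wnt signalling, stood at 8.68 and 4.05 FPKM and at 8.55 and 3.60 FPKM. All 4 were thus higher in control than in knockout in each state, so the gap was present before LPS.

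Markers of stromal cells moved with genotype in the same libraries. Of 18 stromal and endothelial markers at 5 FPKM, 13 were at least 1.5-fold lower in the knockout with LPS, 3 of them (Ogn, Tagln and Acta2) at least 2-fold, and the median was −0.69. Acta2, which encodes smooth muscle actin, stood at 237 and 109 FPKM with hemin alone and 243 and 118 FPKM with LPS, and Tagln at 110 and 54.6 FPKM and 111 and 53.5 FPKM. The matrix genes Col1a1 (92.6 and 56.2 FPKM), Postn (70.5 and 40.9 FPKM) and Fn1 (78.3 and 46.3 FPKM) and the stromal chemokine Cxcl12 (101 and 56.3 FPKM) had the same sign with LPS. Vim, which macrophages also express, stood at 740 and 860 FPKM. The summed FPKM of all 22 listed markers, Vim included, was 1918 in control and 1541 in knockout with LPS. With hemin alone the sums were 2128 and 1660. Of the sums with LPS, Vim alone made up 740 and 860 FPKM, with a ratio opposite in sign to the list median. Endothelial Cdh5 and Pecam1 were at or under 0.163 FPKM in every library, and the fibroblast marker Thy1 at or under 0.247 FPKM. In bulk RNA, fewer cells of a type and less RNA per cell cannot be told apart, and the part of stromal RNA in the other differences was not tested.

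Markers of other blood cells were mixed. None of the 9 B cell and 12 T and NK cell markers reached 5 FPKM in either LPS library. Of the neutrophil markers 4 did, S100a8 and S100a9 being lower and Mmp8 (22.6 and 23.4 FPKM) and Csf3r (30.8 and 32.1 FPKM) near equal, while Mpo, Elane and Prtn3 were listed at 0 in both. Of the 14 dendritic cell markers 5 reached 5 FPKM, all with a ratio above 0 and with Ccl22 at 2-fold, and Cd83 among them stood at 44.6 and 50.7 FPKM. Of the mast cell list Hdc reached 5 FPKM, and of the erythroid and megakaryocyte list Pf4, at 718 and 582 FPKM. The part of such cells in the other differences was not tested. Macrophage identity genes were abundant in both libraries, with all 25 at 5 FPKM, a median of 0.22 and summed FPKM of 24260 and 24442. Of these, Lyz1 and Lyz2 were the only 2 at 1.5-fold, while Csf1r stood at 265 and 311 FPKM and Cd68 at 565 and 636 FPKM.

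The genotype ratios with LPS were set beside those with hemin alone, which share no library. For the 6590 named genes at 5 FPKM in each pair, the 2 ratios had a Pearson correlation of 0.629 and a Spearman correlation of 0.460 across genes, which are not independent replicates. Of the genes 1.5-fold higher with LPS, 47 of 126 (37.3%) were also 1.5-fold higher with hemin alone, and of the genes 1.5-fold lower, 54 of 86 (62.8%) were also lower there. Read the other way, these were 44.3% of the 106 genes higher and 70.1% of the 77 genes lower with hemin alone. In the values as deposited, a larger share of the lower than of the higher genes was thus present before LPS, a difference that was not tested. The shares were not recomputed after either scaling, and scaling changed which genes reached 1.5-fold. The lower genes also include stromal markers such as Ogn, Tagln and Acta2, which were at least 2-fold lower in both pairs.

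**Figure D4:**
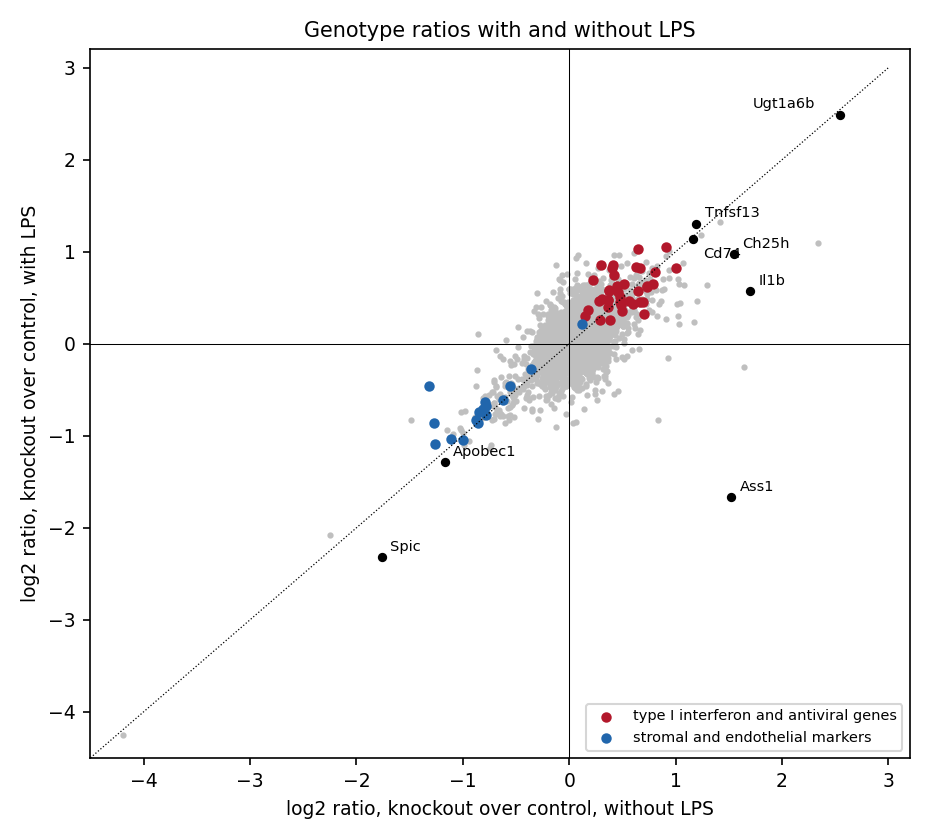
Log2 ratios of (FPKM + 1), knockout over control, with hemin alone (x axis) and with LPS (y axis) for named genes with at least 5 FPKM in each pair, 1 library a group. The dotted line marks equal ratios. Interferon genes (red) lie up and to the right of 0, most stromal markers (blue) down and to the left, and Ass1 lies far from the line at 1.52 and −1.66.

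The ratio with LPS minus the ratio with hemin alone was at least 1 for 31 of 8272 genes (0.375%) with 5 FPKM in 1 of the 4 libraries, and at most −1 for 37 (0.447%). Among named genes these numbers were 12 and 15. Apart from Rpl26, the largest positive differences were those of F3 (1.96), Csf2 (1.78), Ccl22 (1.56), Shisa3 (1.45), Upp1 (1.31), Osm (1.17) and Il23a (1.17). These 7 genes reached 5 FPKM only with LPS, and at their levels without it, 0 to 2.41 FPKM, the added 1 FPKM holds most ratios near 0, so that the difference largely restates the ratio with LPS. For Upp1 the fold with hemin alone was 1.21 with a counting interval of 0.323 to 4.52. On the negative side, Akr1b3 (−4.34), Ass1 (−3.19), Rpl34-ps1 (−1.90), Rmnd1 (−1.76) and Rpl30 (−1.67) led, 3 of which have close copies. Il1b was also among genes whose ratio was smaller with LPS, at 0.57 against 1.70 with hemin alone, where its levels were 1.37 and 6.70 FPKM.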

How the data were processed

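RNA was measured in 4 libraries, 1 for each combination of genotype and LPS. The deposited values were FPKM per gene, 1 file a library. Per the labels' protocols, libraries were made with a stranded mRNA kit, and the submitters' processing notes name Cuffnorm 2.2.1, SAMtools 0.1.19, Bowtie2 2.2.3 and TopHat2 2.0.13 beside mm10. For the gene annotation, a name was not given in the sources used here.

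From the FPKM the authors deposited, log2 ratios of (FPKM + 1) were computed for genes with at least 5 FPKM in 1 of the 2 LPS libraries and counted at 2-fold and 1.5-fold (Python 3.11.15, pandas 2.3.3, SciPy 1.17.1). No test was possible with 1 library a group. Fragments were estimated from the spacing of low FPKM values, of which 83.2% of 3175 genes were whole multiples within a tolerance of 0.02, with transcript lengths from GENCODE vM21. Intervals are Clopper-Pearson, and the code was checked on simulated data. FPKM sums of the LPS libraries were 736818 (control) and 819232 (knockout).

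Genes named were Spic, the 15 highest and 15 lowest ratios, the 10 largest FPKM differences each way, list members at 2-fold and up to 4 per list, genes at 2-fold in both genotype pairs, and the 8 largest differences of ratios each way. Values of other list members, and 4-library values, were added where a comparison needed them, after they were seen. Some genes that the rule takes are not reported here. Members and the 52 lists were chosen with earlier results of these data known. Of 1048 listed symbols 3 were not matched and 16 matched by another symbol. Alternatives changed the pseudocount, the minimum, the scaling, the threshold, the genes left out and the list minimum.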

Additional observations from a re-analysis of the deposited data

Results flagged for a closer look

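For 4 genes with at least 5 FPKM in each genotype pair, the knockout to control ratio was at least 2-fold in opposite directions with and without LPS. Akr1b3 had the same pattern but was under 5 FPKM in both libraries with hemin alone. The differences of ratios rest on 1 library a group and were not tested. For Ass1, the argininosuccinate synthase gene described above, the log2 ratio was 1.52 with hemin alone and −1.66 with LPS, a difference of −3.19. Mir22, a microRNA gene, stood at 207 and 908 FPKM with hemin alone and at 7.49 and 0 FPKM with LPS, a difference of −5.22. Snora3 was listed at 0 and 32.4 FPKM with hemin alone and at 39.6 and 0 FPKM with LPS, a difference of −10.41. Snora34 was listed at 0 and 71.4 FPKM and then at 43.6 and 0 FPKM, a difference of −11.66. Both are genes of small nucleolar RNAs, each listed at 0 in 1 library of either pair.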

How the results depend on the processing

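The count of higher genes, 37, was 21 with a pseudocount of 5 FPKM and 45 with one of 0.1 FPKM. It was 23 with a minimum of 20 FPKM, 55 with a minimum of 1 FPKM or with none, and 215 at 1.5-fold. The count of lower genes, 30, was 22 and 41 with these pseudocounts. It was 21 with a minimum of 20 FPKM, 51 with a minimum of 1 FPKM or with none, and 127 at 1.5-fold. Without small RNA genes and unnamed features the counts were 27 higher and 15 lower. With stromal and endothelial markers also left out they were 27 and 12, an alternative chosen after seeing the data. Of the 42 named genes at 2-fold, a pseudocount of 5 left 21 at 2-fold, including neither Tnfsf13, Hdc, Osm, Il23a, Ogn, Tagln nor Slfn4. Scaling by the median of ratios left 33 and upper-quartile scaling 34. Cxcl11, Slfn4, Cmpk2, Ankrd37, Apol9b, H2-M2, Il4i1 and Pnp2 lost the 2-fold call under both scalings, and no named gene at 2-fold changed sign under these settings. The 2 scalings moved the median of all genes by −0.09 and −0.07. They turned the medians of lists near 0: the MAP kinase list to −0.026 and −0.010, prostaglandin synthesis to −0.042 and −0.026, red pulp macrophage genes to −0.043 and −0.027, the integrated stress response to −0.015 and −0.00011, the respiratory chain to −0.043 and −0.027, and heat shock proteins to −0.011 under the median of ratios. No paired analysis was possible because each group has 1 library, so the groups share only 1 replicate number. Depth limits low genes, since 5 FPKM over 2 kb meant only about 70.3 fragments in the LPS-treated knockout library.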

Other observations

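The lysosome and proton pump list, not described above, held 32 members with a median log2 ratio of 0.13, near the 0.09 of all members. Of the 32, 28 (87.5%) lay above 0, against 68.1% of all members. After scaling by the median of ratios 20 (62.5%) lay above 0, against 50% of all members, and the median of the list was 0.04. Atp6v1e1, a subunit of the proton pump, stood at 255 (control) and 393 FPKM (knockout) with LPS and was its only member at 1.5-fold on the higher side, though not after either scaling, while the lower side held Atp6v0c, whose pseudogene had the opposite sign. In the complement list 1 of 14 members, C3, was 1.5-fold higher as deposited and none after either scaling, C3 standing at 174 and 270 FPKM with LPS and 39.1 and 65.0 FPKM with hemin alone. Cfb, the partner of C3 in the alternative pathway, stood at 146 and 217 FPKM. The C1q subunits C1qa (472 and 617 FPKM), C1qb (751 and 986 FPKM) and C1qc (630 and 785 FPKM) lay close together in ratio, at 0.38, 0.39 and 0.32.

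Of 22 coagulation, plasminogen and matrix protease genes, 2 were 1.5-fold higher and 1 lower, with a median of 0.30, against 2.86% and 1.69% of all members. After scaling by the median of ratios 1 was higher and 3 lower, and after upper-quartile scaling 1 and 2. The urokinase receptor gene Plaur stood at 235 and 355 FPKM, next to F3, and Mmp19 stood at 8.59 and 5.33 FPKM. Of 13 cell cycle and replication genes none was 1.5-fold apart, and Cdkn1a, the p21 inhibitor gene, had the highest ratio at 658 and 959 FPKM. By position, chromosome 11 held 6 of the 27 named genes at 2-fold on the higher side and 608 of the 7021 members with a position, a count given as a description with no test.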
